A study of Mus musculus with 6 samples.

Results

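The ligands and receptors described here are 9 genes of the tumour necrosis factor (TNF) superfamily that support sinus macrophages and B cells, chosen by name from the 32287 genes of the matrix. They are the ligands Tnfsf11 (RANKL), Lta (lymphotoxin-α), Ltb (lymphotoxin-β), Tnfsf13 (APRIL) and Tnfsf13b (BAFF), and the receptors Tnfrsf11a (RANK), Ltbr (the lymphotoxin-β receptor), Tnfrsf1a (TNF receptor 1) and Tnfrsf13c (the BAFF receptor). All 9 were in the matrix and had at least 1 unique molecule (UMI) in a gated cell, and 8 passed the filter on low counts. Tnfsf13b did not pass it and has no test.

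Cells came from CITE-seq, which reads the RNA and antibody tags of single cells together, of the inguinal lymph nodes of 2 unimmunized and 2 immunized CD169Tom mice, taken on day 9. These mice are Cd169 Cre/+.Tdtomato fl/fl, so every group carried the reporter, and the tdTomato label (TOM) marks cells in which the Siglec1 (CD169) locus was once active as well as their progeny. TOM is therefore a record of lineage and not of present CD169. The study used 2 antigens under the skin, a lysozyme-ovalbumin peptide conjugate given after transfer of antigen-specific T and B cells and chicken gamma globulin, each in adjuvant. No source used here says which of them these immunized mice received, or whether the unimmunized mice also received transferred cells, so an effect of transfer and one of immunization cannot be told apart. Live CD11b+ TOM+ cells were sorted, each mouse received its own hashtag antibody, and 1 pool of the 4 mice was split over 2 captures. The mouse was the replicate, with 2 mice in each condition.

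Lymphotoxin is made as a membrane complex of LTα and LTβ that binds LTβR, while LTα alone binds the TNF receptors. RANKL binds RANK, which is best known in osteoclasts, in lymph node formation and in dendritic cells. BAFF binds the BAFF receptor and TACI and keeps mature B cells alive, and APRIL binds TACI and BCMA and supports plasma cells. LTβR, RANK, the BAFF receptor and CD40 signal through TRAF adaptors and NIK to the NF-κB subunits p100 and RelB, and lymphotoxin and RANK signals are needed for the sinus and subcapsular macrophages of lymph nodes.

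Of 18662 barcodes, 12139 were kept after hashtag and quality filters, with 2828, 537, 4052 and 4722 cells in unimmunized mice 1 and 2 and immunized mice 1 and 2. Summed UMIs per mouse were 18943001, 3817845, 39020653 and 61983132, and median UMIs per cell were 5877, 6280, 9674 and 12727.5, higher in both immunized mice. Marker gates placed 6845 cells (56.4%) in 14 types. No ligand or receptor of the set was a gate marker. In every gate the leading 10 genes held more of the gate's own markers than of any other gate's. Gating on those markers favours this, so it is no independent check. Summed classical monocyte markers exceeded the gate's own in nonclassical monocytes (7867 against 1500 per 1e6 UMIs) and interferon-high cells (6848 against 2270). They also did so in inflammatory macrophages (3044 against 1468) and Cd209a DCs (2046 against 1078). Summed C1q macrophage markers likewise exceeded the gate's own in interferon-high cells (2885 against 2270) and inflammatory macrophages (2251 against 1468). Medullary sinus macrophages (MSM) are named by their RNA markers. The CD169 antibody was not highest in that gate: its mean centred log ratio was 0.52 in MSM, 1.39 in γδ T cells, 1.19 in NK cells and -0.49 in C1q macrophages. Shares of types are shares of the kept cells of this sort and not of the lymph node. The paper classed the B cells and NKT cells of the sort as contaminating. Itgam, the gene of CD11b, was at 9.58 per 1e6 UMIs in αβ T cells and 7.51 in B cells. It was at 107 in NK cells and 168 in classical monocytes. The share of αβ T cells per mouse was 19.6% and 16.2% without immunization, against 4.05% and 1.74% after it. Classical monocytes were at 2.40% and 1.12% against 18.1% and 16.6%, and MSM at 12.1% and 7.45% against 4.22% and 0.51%. The UMIs of each mouse and type with at least 10 cells were summed into a library, which gave 78725 to 10926020 UMIs over the 46 libraries of the 12 types that entered the fit. Inflammatory macrophages and neutrophils had 1 library each and are given as values. Levels are the share of a library's UMIs scaled to 1e6 (CPM), they compare 1 gene between types, and no order between genes is read from them. Unless another order is stated, the 4 values of a gene belong to unimmunized 1, unimmunized 2, immunized 1 and immunized 2, and a mean is followed by its SD and the number of mice.

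Lta and Ltb were highest in B and T cells, Tnfsf13 was highest in MSM, and most Tnfsf11 UMIs of gated cells were in T cells. Only 48.5% of the Tnfsf11 UMIs of all kept cells lay in a gate, so the source of the rest is not known. Sources outside a sort of CD11b+ TOM+ cells are not seen. No gate was set for stromal cells or for subcapsular sinus macrophages, a population that the paper named in its own clusters. Among the receptors, Ltbr and Tnfrsf1a were spread over monocytes and macrophages, Tnfrsf11a was highest in migratory dendritic cells (DCs) and Tnfrsf13c in B cells. All 8 tested members differed among the 12 types by edgeR's quasi-likelihood F test with Benjamini-Hochberg adjustment, with adjusted p from 4.62e-22 for Ltb to 1.57e-07 for Tnfsf11. That test also called 75.4% of the 11182 genes tested.

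**Figure D1:**
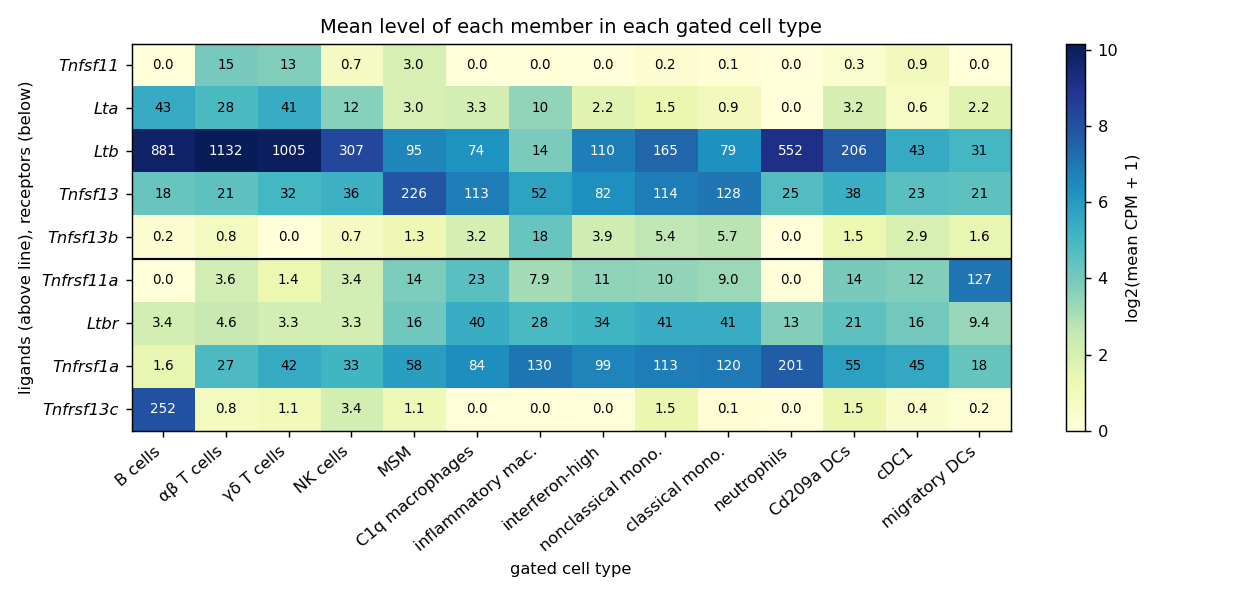
Heat map of the 9 genes (rows, ligands above the line and receptors below) in 14 marker-gated types (columns). Colour is log2 of the mean CPM plus 1 and the number in each cell is the mean CPM over mice. Inflammatory macrophages and neutrophils rest on 1 library each. Tnfrsf13c stands out in B cells at 252.5 CPM and Tnfrsf11a in migratory DCs at 127 CPM, whereas Ltbr lies between 34.1 and 41.0 CPM in monocytes, C1q macrophages and interferon-high cells.

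Both lymphotoxin genes, and 2 of the receptors, are neighbours in the mouse genome (GRCm38). Ltb (chr17:35194439-35196320, plus strand) and Lta (chr17:35203165-35205351, minus strand) lie 6844 bases apart with Tnf between them. Ltbr (chr6:125306571-125313885, minus strand) and Tnfrsf1a (chr6:125349362-125362484, plus strand) lie 35476 bases apart with Scnn1a, which encodes a sodium channel subunit, between them. Over the 46 libraries the log levels of Lta and Ltb correlated at r = 0.76 and those of Ltbr and Tnfrsf1a at r = 0.74. These are descriptions over libraries that share mice, captures and cell types. Genes on different chromosomes reached similar values, at r = 0.71 for Tnfsf13 with Tnfrsf1a and r = 0.67 for Tnfsf13 with Ltbr. The promoters of both pairs are shown because the genes of each pair are neighbours. Each is the 250 bases before the RefSeq start of the gene (GRCm38.p6), read 5′ to 3′ on the gene's strand. The gene positions above are from GENCODE, whose starts can differ from those of RefSeq. The Tnfrsf1a window lies wholly inside the gene as placed above, and the Ltb window runs past its start. Capitals mark matches to the κB motif GGGNNNNNCC, which NF-κB dimers bind, on either strand (GGNNNNNCCC on the other), with overlapping matches merged.
Ltb, chr17:35194257-35194506: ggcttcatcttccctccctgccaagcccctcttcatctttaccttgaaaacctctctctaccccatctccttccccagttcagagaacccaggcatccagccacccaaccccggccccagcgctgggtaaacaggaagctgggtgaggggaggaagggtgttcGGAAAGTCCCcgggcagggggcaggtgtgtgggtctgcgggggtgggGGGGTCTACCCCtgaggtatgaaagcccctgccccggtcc
Lta, chr17:35205352-35205601: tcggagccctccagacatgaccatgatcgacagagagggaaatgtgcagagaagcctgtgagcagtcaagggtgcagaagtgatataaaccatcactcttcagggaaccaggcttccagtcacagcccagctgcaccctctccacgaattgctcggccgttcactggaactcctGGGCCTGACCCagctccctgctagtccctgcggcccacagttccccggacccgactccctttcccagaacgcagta
Ltbr, chr6:125313886-125314135: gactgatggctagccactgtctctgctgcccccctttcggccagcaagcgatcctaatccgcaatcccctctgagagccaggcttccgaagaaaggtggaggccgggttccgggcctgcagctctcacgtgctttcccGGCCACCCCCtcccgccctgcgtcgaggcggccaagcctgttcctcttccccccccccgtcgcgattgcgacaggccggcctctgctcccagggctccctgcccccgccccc
Tnfrsf1a, chr6:125349473-125349722: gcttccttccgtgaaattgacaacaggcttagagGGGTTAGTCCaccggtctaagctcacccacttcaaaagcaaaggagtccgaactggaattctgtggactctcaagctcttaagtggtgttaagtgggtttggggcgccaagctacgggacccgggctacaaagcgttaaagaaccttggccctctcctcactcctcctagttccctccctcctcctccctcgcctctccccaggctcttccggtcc
Counting overlaps, the Ltb window held 4 matches, the Lta window 2 and the Ltbr and Tnfrsf1a windows 1 each. The windows of Tnfsf11, Tnfrsf11a and Tnfsf13 held 2 each, that of Tnfrsf13c held 1, and both windows listed for Tnfsf13b held 0. Most of the Tnfsf13 window and the last bases of the Tnfrsf11a window also lie inside the genes as GENCODE places them. A match was also found in 45.8% of the 32851 mouse promoter windows of the same length, so a match is common and by itself does not show a binding site. Binding was not tested.

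Ltb, which anchors lymphotoxin at the cell surface, was at 1131, 1155, 1190 and 1053 CPM in αβ T cells (mean 1132 ± 58.4, SD, n = 4). It was at 1147, 685, 815 and 879 CPM in B cells and at a mean of 1005 ± 265 CPM in γδ T cells (n = 3). These 3 types overlapped one another. NK cells were lower, at 395, 341, 240 and 253 CPM, without overlap with B or T cells. Myeloid types were lower still. The highest means were 206 ± 76.0 CPM in Cd209a DCs and 165 ± 53.2 CPM in nonclassical monocytes (n = 4 each), and the lowest among types with 4 mice was 30.8 ± 21.5 CPM in migratory DCs. The single neutrophil library of 12 cells held 551.5 CPM. Ltb was 3.01 ± 0.11 (SE) log2 units higher in lymphoid than in myeloid types (adjusted p = 5.99e-24), and 17.4% of all genes were called higher in that comparison. Dendritic types were below monocytes and macrophages by a fitted difference of -0.62 ± 0.16 (adjusted p = 0.00204), which was not called without unimmunized mouse 1 (-0.78) or without immunized mouse 1 (-0.37). Not every dendritic type was lower: cDC1 (mean 43.0 CPM) and migratory DCs were, whereas Cd209a DCs had a higher mean than every monocyte and macrophage type. When each cell was thinned to 1000 UMIs, 66.4% ± 4.68 of αβ T cells and 4.89% ± 1.64 of C1q macrophages had an Ltb UMI (n = 4 mice each). Unthinned, these shares were 98.1% and 36.9%, at medians of 6241 and 13841.5 UMIs per cell.

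Lta, the partner of Ltb in the membrane complex, was likewise highest in B and T cells. B cells held 39.2, 46.4, 46.0 and 38.6 CPM (mean 42.6 ± 4.24, n = 4), γδ T cells a mean of 41.4 ± 16.6 CPM (n = 3), and αβ T cells 38.4, 28.4, 26.9 and 17.1 CPM (mean 27.7 ± 8.73, n = 4). Every αβ T cell library lay below every B cell library, but the nearest 2 were at 38.42 and 38.57 CPM. The latter, immunized mouse 2, rested on 9 UMIs in 4 B cells. NK cells held 46.0, 0, 1.42 and 0 CPM, and the first of these rested on 48 UMIs in 8 of 169 cells. Lta in myeloid types also came from few cells: all 12 UMIs of MSM lay in 5 cells of unimmunized mouse 1, the 23 UMIs of inflammatory macrophages in 8 cells of immunized mouse 2, and 12 of the 29 UMIs of interferon-high cells in 1 cell. Lta was 3.77 ± 0.86 log2 units higher in lymphoid than in myeloid types (adjusted p = 3.85e-04), a call lost without unimmunized mouse 1 (4.66) and without immunized mouse 1 (3.63). Within the lymphoid types, B cells exceeded the others by 1.33 ± 0.50 log2 units for Lta (adjusted p = 0.0602) and by 0.49 ± 0.18 for Ltb (adjusted p = 0.0536), which are not called. With the mouse as a replicate block both were called, at 1.34 (adjusted p = 0.0233) and 0.52 (adjusted p = 0.00857).

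Tnfsf11, the RANK ligand, had 112 UMIs in gated cells, most of them in T cells. αβ T cells held 10.5, 13.3, 13.4 and 22.2 CPM (mean 14.8 ± 5.10, n = 4) and γδ T cells a mean of 12.9 ± 4.04 CPM (n = 3). Of its UMIs in gated cells, 65.2% were in αβ and 17.0% in γδ T cells. No UMI was found in B cells, C1q macrophages, interferon-high cells or migratory DCs, counts of 0 that allow levels of up to 1.61, 0.231, 0.383 and 0.863 CPM. MSM held 12.1 CPM in unimmunized mouse 1 and 0 in the other 3 mice, and those 12 UMIs lay in 3 cells. Thinned to 1000 UMIs, 1.91% ± 0.61 of αβ T cells had a Tnfsf11 UMI, and unthinned 7.70% ± 2.31 (n = 4). No fold change between lineages is given for Tnfsf11, because types on both sides of the comparison held no UMI and the fit had no finite difference to estimate.

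Tnfsf13 (APRIL) had its highest level in MSM. These held 217, 235, 204 and 246 CPM (mean 225.5 ± 18.6, n = 4), and the 4 mice lay within a narrow range. Next came classical monocytes at a mean of 128 ± 31.8 CPM (n = 3), nonclassical monocytes at 114 ± 26.2, C1q macrophages at 113 ± 26.0 and interferon-high cells at 81.9 ± 8.80 (n = 4 each), none of which overlapped MSM. Dendritic types, T cells, B cells and NK cells all had means of 18.3 to 37.7 CPM. The difference of MSM from C1q macrophages was 0.93 ± 0.22 log2 units (adjusted p = 0.00193), in a comparison that called 10.2% of genes higher. Without unimmunized mouse 1 it was 0.96 and not called. Dendritic types were below monocytes and macrophages by a fitted difference of -2.18 ± 0.14 (adjusted p = 3.77e-15), where 16.5% of genes were called lower. Lymphoid types were below myeloid types by a fitted difference of -1.64 ± 0.15 (adjusted p = 8.61e-12). Thinned to 1000 UMIs, 22.9% ± 4.46 of MSM had a Tnfsf13 UMI against 1.56% ± 1.44 of B cells (n = 4 each), and 46.3% against 9.25% unthinned, although MSM had the lower median depth (2297 against 4344 UMIs). Tnfsf13 (chr11:69682846-69685784) overlaps the readthrough gene Tnfsfm13 on its own strand, which has no row in the matrix, and Tnfsf13os on the other strand. The level may therefore hold reads of the readthrough transcript.

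Tnfsf13b (BAFF) had 342 UMIs in all gated cells. Its highest value was 18.4 CPM in the single inflammatory macrophage library, which is immunized mouse 2, from 42 UMIs in 30 of 142 cells. Classical monocytes held a mean of 5.68 ± 3.58 CPM (n = 3), nonclassical monocytes 5.43 ± 4.00, interferon-high cells 3.90 ± 3.48 and C1q macrophages 3.18 ± 2.65 (n = 4 each). These 4 overlapped one another. B cells, the cells that depend on BAFF, held 1 UMI, and γδ T cells 0. MSM, which had the highest Tnfsf13, held 5 UMIs of Tnfsf13b, all in unimmunized mouse 1.

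**Figure D2:**
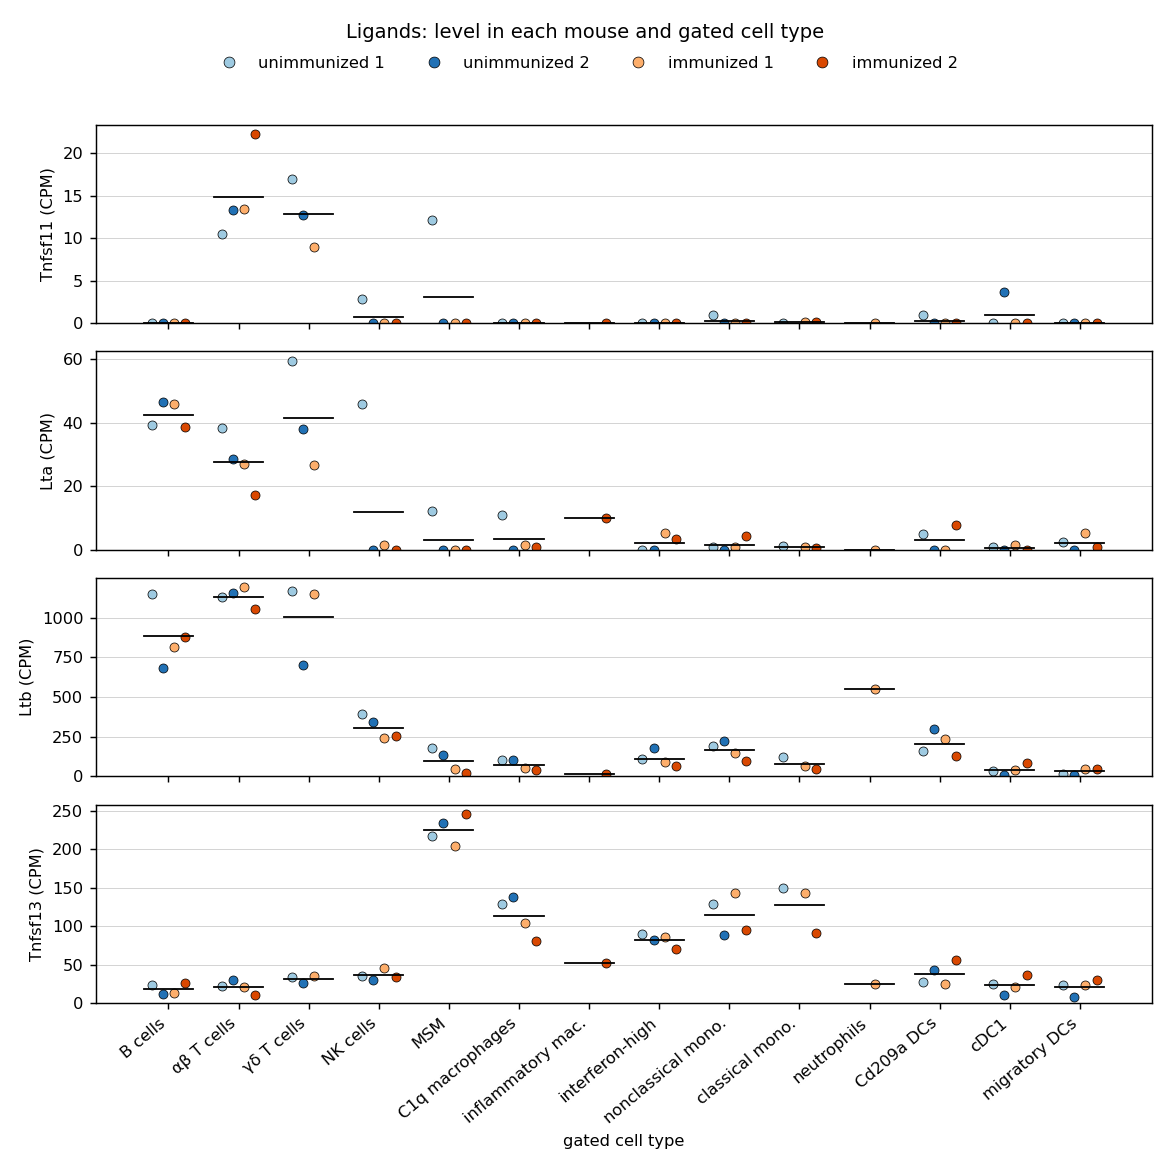
Levels of the ligands in CPM (vertical axis) by cell type (horizontal axis), with 1 dot per mouse coloured by condition and a black line at the mean over mice. The 4 MSM libraries of Tnfsf13, at 204 to 246 CPM, lie above every library of the other types. Ltb lies between 685 and 1190 CPM in the B and T cell libraries.

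Tnfrsf11a (RANK) was highest in migratory DCs, the mature DCs that arrive from the skin and other tissues. They held 123, 154, 137 and 94.1 CPM (mean 127 ± 25.4, n = 4). The next type, C1q macrophages, held 33.2, 21.2, 23.6 and 13.5 CPM (mean 22.9 ± 8.13), so the ranges did not overlap. Cd209a DCs, MSM, cDC1, interferon-high cells and both monocyte types had means between 8.96 and 14.3 CPM and overlapped in part. MSM, macrophages whose sinus niche depends on RANK signals, held 16.1, 0, 8.82 and 29.5 CPM, from 25 UMIs in all. No UMI was found among 275 B cells, which allows up to 1.61 CPM. Dendritic types were above monocytes and macrophages by 1.27 ± 0.19 log2 units (adjusted p = 1.94e-06), where 15.7% of genes were called higher, and by 1.93 without unimmunized mouse 1. Of the dendritic types only migratory DCs stood apart. Cd209a DCs (mean 14.3 CPM) and cDC1 (12.3) had lower means than C1q macrophages, and their ranges overlapped those of C1q macrophages and of MSM. Tnfrsf11a was called lower in lymphoid than in myeloid types (adjusted p = 1.77e-11), along with 25.2% of all genes. Because B cells were at 0, its fold is a bound: with 3 counts over the 4 B cell libraries in place of 0, the difference was -2.36 log2 units. The fitted difference was -4.40, and without unimmunized mouse 1 it was -4.47 and not called. Thinned to 1000 UMIs, 12.55% ± 2.85 of migratory DCs had a Tnfrsf11a UMI and 0 of 275 B cells did. Unthinned the share of migratory DCs was 67.8% ± 8.38, at a median of 10518 UMIs against 4344 in B cells. The highest levels of ligand and receptor lay in different gates: Tnfsf11 had no UMI in migratory DCs, and αβ T cells held a mean of 3.63 ± 1.62 CPM of Tnfrsf11a.

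Ltbr, the receptor of the lymphotoxin complex, had its highest means in both monocyte types, C1q macrophages and interferon-high cells. Classical monocytes held a mean of 41.0 ± 2.87 CPM (n = 3), nonclassical monocytes 40.9 ± 10.5, C1q macrophages 40.2 ± 9.10 and interferon-high cells 34.1 ± 6.27 (n = 4 each), and these 4 types overlapped. MSM were lower at 26.2, 8.39, 20.6 and 9.85 CPM (mean 16.3 ± 8.58), from 42 UMIs. Cd209a DCs held a mean of 20.9 ± 11.4 CPM, cDC1 15.9 ± 4.19 and migratory DCs 9.40 ± 6.61 (n = 4 each), and each of these overlapped MSM. The 4 lymphoid types had means of 3.33 to 4.59 CPM. Lymphoid types were below myeloid types by a fitted difference of -2.96 ± 0.24 log2 units (adjusted p = 2.75e-13), and dendritic types were below monocytes and macrophages by -1.12 ± 0.17 (adjusted p = 2.29e-06). The difference of MSM from C1q macrophages was -0.95 ± 0.33 (adjusted p = 0.0332) beside 11.2% of genes called lower, and this call was lost under 12 of the 18 alternatives tried, leaving out any 1 of the 4 mice among them (-1.67 without unimmunized mouse 1, -0.87 without unimmunized mouse 2, -1.61 without immunized mouse 1 and -0.79 without immunized mouse 2). Without unimmunized mouse 1 the lineage difference was -4.05 and not called, and the dendritic difference was -2.21. The cells with most Ltb and Lta thus held the least Ltbr.

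Tnfrsf1a, the receptor of TNF and of soluble LTα, was broader. It was at 200.6 CPM in the neutrophil library and 129.6 CPM in the inflammatory macrophage library, and at means of 119.9 ± 18.4 CPM in classical monocytes (n = 3), 113 ± 11.9 in nonclassical monocytes, 98.6 ± 6.78 in interferon-high cells and 83.7 ± 13.9 in C1q macrophages (n = 4 each). αβ T cells, γδ T cells and NK cells still held means of 26.8 to 42.4 CPM, whereas B cells held 3.27, 0, 3.23 and 0 CPM. The difference of B cells from the other lymphoid types was -3.47 ± 0.50 log2 units (adjusted p = 7.76e-07), in a comparison that called 8.09% of genes lower. Lymphoid types were below myeloid types by -2.05 ± 0.16 (adjusted p = 3.42e-14), and dendritic types below monocytes and macrophages by -1.25 ± 0.12 (adjusted p = 1.21e-10). Not every type followed these differences. Migratory DCs, a myeloid type, had a mean of 18.5 ± 10.5 CPM, below the means of T and NK cells. Cd209a DCs (55.0 ± 26.7 CPM) and cDC1 (44.6 ± 12.4) overlapped MSM (n = 4 each). MSM held 48.4, 41.9, 42.6 and 98.5 CPM, and their difference from C1q macrophages was -0.77 ± 0.24 (adjusted p = 0.0187), which 10 of the 18 alternatives did not call, among them those without unimmunized mouse 1 (-0.97), unimmunized mouse 2 (-0.62) and immunized mouse 1 (-0.53). Without unimmunized mouse 1 the B cell difference was -5.93, and without immunized mouse 1 it was -5.85.

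Tnfrsf13c, the BAFF receptor, was nearly confined to B cells, with 93.0% of its UMIs in gated cells. B cells held 363, 151, 291 and 206 CPM (mean 252.5 ± 93.3, n = 4), and the next type, NK cells, a mean of 3.38 ± 4.40 CPM from 5 UMIs. The difference from the other lymphoid types was 8.10 ± 0.41 log2 units (adjusted p = 4.08e-17), where 9.43% of genes were called higher. Thinned to 1000 UMIs, 24.1% ± 3.30 of B cells and 0.0451% ± 0.0903 of αβ T cells had a Tnfrsf13c UMI (n = 4 each), and unthinned 60.8% and 0.33%. Receptor and ligand were thus apart: B cells had 1 UMI of Tnfsf13b, while C1q macrophages had 1 UMI of Tnfrsf13c and interferon-high cells 0.

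**Figure D3:**
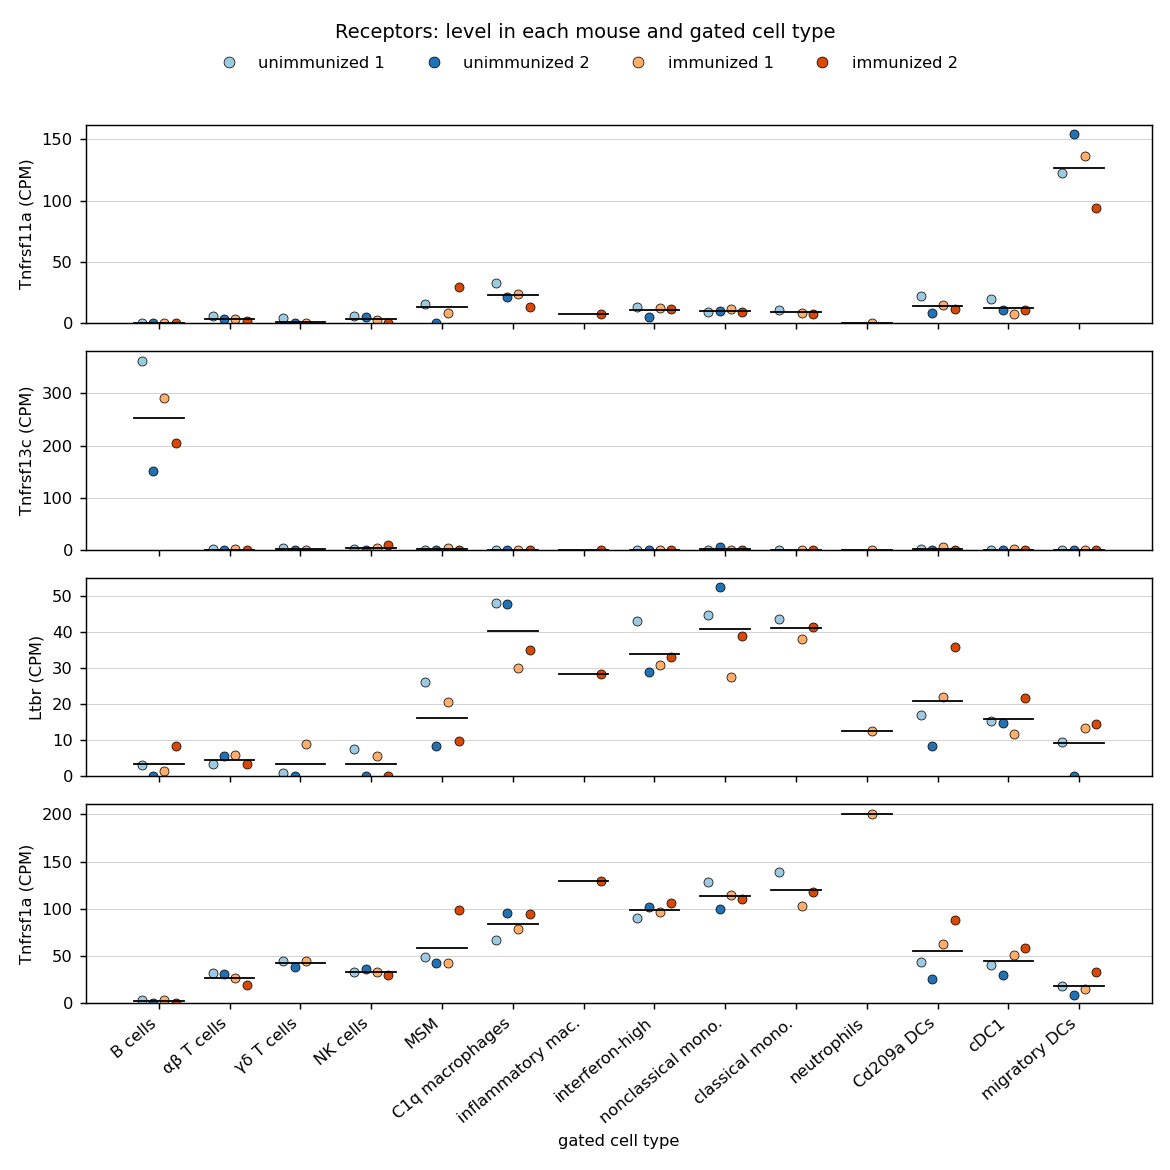
Levels of the receptors in CPM (vertical axis) by cell type (horizontal axis), with 1 dot per mouse coloured by condition and a black line at the mean over mice. All 4 migratory DC libraries of Tnfrsf11a, at 94.1 to 154 CPM, lie above every library of the other types, as do the 4 B cell libraries of Tnfrsf13c at 151 to 363 CPM.

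The other genes of these pathways were followed as a list of 26 ligands, receptors, TRAF adaptors, kinases and NF-κB subunits, of which 23 passed the filter. Tnfrsf11b (osteoprotegerin, the decoy receptor of RANKL), Tnfrsf17 (BCMA, an APRIL receptor) and Tnfrsf14 (HVEM) did not. All 23 differed among types, in the test that called 75.4% of all genes. In lymphoid against myeloid types 1 was higher and 15 were lower, beside 17.4% of all genes called higher and 25.2% lower. The list's median was -0.90 log2 units beside -0.09 over all genes. The one higher was Tnfsf14 (LIGHT, a further ligand of LTβR), by 3.59 ± 0.70 (adjusted p = 5.86e-05). Cd40 (-2.66), Tnfrsf1b (-2.12, TNF receptor 2) and Birc3 (-1.88, an inhibitor of NIK signalling) were among the lower. Cd40lg had no UMI in some types of both lineages, and with 3 counts in place of 0 the list's median was also -0.90.

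In B cells against the other lymphoid types, 6 of the 23 were higher and 3 lower, beside 9.43% and 8.09% of all genes. The list's median was 0.24 beside -0.01 over all genes. Tnfrsf13b, which encodes TACI, the receptor that BAFF and APRIL share, was higher by 4.37 ± 0.27 (adjusted p = 4.64e-16) and had a mean of 168 ± 27.3 CPM in B cells (n = 4). Cd40 was higher by 2.80, Traf5 by 1.62, Rel by 1.60, Birc3 by 1.35 and Nfkb2 by 0.94, while Tnfsf14 (-4.68), Tnfsf12 (-2.56) and Tnfrsf1b (-2.23) were lower. Cd40lg, the CD40 ligand, was at a mean of 45.1 ± 14.4 CPM in αβ T cells (n = 4), and at 4.74 ± 4.48 CPM in γδ T cells (n = 3).

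In MSM against C1q macrophages 1 of the 23 was higher, Relb by 0.81 ± 0.23 (adjusted p = 0.00828), and 7 were lower, beside 10.2% and 11.2% of all genes. The list's median was -0.55 beside -0.02 over all genes. The 7 were Cd40 (-1.46), Tnfrsf1b (-1.38), Tnfrsf13b (-1.32), Map3k14 (-1.15, which encodes NIK), Rel (-1.15), Traf1 (-1.12) and Ikbkb (-0.67). In dendritic types against monocytes and macrophages 8 were higher and 4 lower, beside 15.7% and 16.5% of all genes, with a median of 0.07 beside 0.02 over all genes. Traf1 (0.96), Traf5 (0.78), Birc2 (0.73), Map3k14 (0.55), Rel (0.55), Cd40 (0.43), Chuk (0.35) and Relb (0.32) were higher, and Tnfrsf1b (-1.28), Tnfsf12 (-1.16), Tnfrsf13b (-0.60) and Nfkb2 (-0.28) lower. Not every dendritic type was higher. Mean Relb was 63.8 CPM in Cd209a DCs and 35.7 in cDC1, against 99.6 in classical monocytes. Cd40 was at 78.7 and 51.8 against 131.1, and Birc2 at 69.2 and 52.8 against 74.8. Traf1 was mixed, at 184.8 and 85.0 against 117.9. Migratory DCs, the cells with most Tnfrsf11a, also had the highest mean level of Traf1 (627 ± 68.9 CPM), Relb (569 ± 61.8), Cd40 (507 ± 123.5), Birc3 (346 ± 69.0), Nfkb2 (170 ± 38.5) and Map3k14 (86.1 ± 24.7, n = 4 each). Of these, Map3k14 overlapped nonclassical monocytes. Nfkb2, at 113.6 to 200.8 CPM in migratory DCs, overlapped both monocyte types, interferon-high cells, Cd209a DCs and C1q macrophages. The inflammatory macrophage library held 122.6 CPM of it.

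By the correlation of log levels over the 46 libraries, the genes most like each tested member were named. For Tnfsf11 they were Cd3e (r = 0.91, a subunit of the T cell receptor complex), Olfr60 and Tnfrsf25. For Tnfrsf13c they were Srpk3 (r = 0.98), Gm30211 and Pax5, the B cell transcription factor, which is itself a marker of the B cell gate. For Lta they were Ccr6 (r = 0.92), Pxdc1 and Blk, and for Ltb Dgkd (r = 0.89), Mettl23 and Macf1. For Tnfrsf11a they were Fnbp1l (r = 0.86), Fabp5 and Pfkfb3. For Ltbr they were Tgfbi (r = 0.92), Tlr2 and Tpd52, for Tnfrsf1a Fyb (r = 0.91), Mkrn1 and Abr, and for Tnfsf13 Msrb1 (r = 0.90) and the overlapping Tnfsf13os (r = 0.89). The libraries share mice and cell types, so these values describe patterns across types and carry no test.

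Immunization was tested within the 10 types that had 2 mice in each condition. None of the 8 members was called in any type (edgeR quasi-likelihood test, Benjamini-Hochberg adjusted). Over the 80 tests, 9 (11.2%) had an unadjusted p under 0.05, against 7.54% of all gene tests. DESeq2 called 1 of these 9, and limma-voom made 1 call outside them, both named below. The test called few genes of any kind: 0.393% in αβ T cells, 0.00894% in B cells, 0.0179% in C1q macrophages, 0.358% in Cd209a DCs, 0% in cDC1, 0.0984% in interferon-high cells, 0.456% in migratory DCs, 0.0894% in MSM, 0% in NK cells and 0% in nonclassical monocytes. Of the other pathway genes none was called either, and 15 of 230 tests (6.52%) had an unadjusted p under 0.05.

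Ltb gave 4 of the 9 low unadjusted p-values. In MSM it was at 176.5 and 134 CPM in the unimmunized and 48.5 and 19.7 CPM in the immunized mice, without overlap. The difference was -1.81 ± 0.44 log2 units, with an adjusted p of 0.120. It was called under 4 alternatives and not under 12. Those that called it were DESeq2 (-1.89, adjusted p = 0.0432) and edgeR without the filter on low counts (-1.75, adjusted p = 4.96e-04), without immunized mouse 2 (-1.58) and with barcodes of a lymphoid and a myeloid gate kept (-2.04, adjusted p = 0.0405). Without the filter the test also called more genes of any kind, as counted below. C1q macrophages held 103 and 101 against 54.6 and 37.6 CPM (-1.03 ± 0.40, adjusted p = 0.486), called without immunized mouse 1 (-1.30) and not under 13 other alternatives. Migratory DCs had 16.9 and 8.12 against 48.9 and 49.5 CPM (1.70 ± 0.53, adjusted p = 0.186), called without the filter on low counts (1.73, adjusted p = 0.00705) and not under 13 other alternatives. In cDC1 Ltb was at 30.6 and 11.0 against 43.0 and 87.2 CPM (1.23 ± 0.47, adjusted p = 0.707). In αβ T cells and B cells, which held most of it, the conditions overlapped, with differences of 0.14 and 0.08. Of the 10 types, the mice of the 2 conditions did not overlap in 7, higher in the immunized mice in 2 and lower in 5. Over all genes with at least 20 UMIs in a type, the conditions were likewise apart in 17.9% of gene and type pairs as higher and in 22.9% as lower. Whether the difference varied among types was tested by the interaction. That test called 0.0626% of all genes without the mouse as a replicate block, and more with it. The adjusted p of Ltb was 0.0699 without the block and 0.00338 with it. Without the block it was 8.11e-05 without immunized mouse 1 and 0.00202 without immunized mouse 2, but 0.806 without unimmunized mouse 1 and 0.807 without unimmunized mouse 2. Over the 18 alternatives it ranged from 2.23e-09 without the filter on low counts to 1, the value within either capture alone and with libraries of at least 5 cells.

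T cell RNA moved with Ltb in the MSM gate. The summed level of the 7 αβ T cell markers in MSM was 95.8, 67.1, 13.2 and 0 CPM, and 7 of the 7 markers, Trac among them, were at 0 in immunized mouse 2. The 9 B cell markers summed to 120, 58.7, 72.1 and 78.8 CPM there. MSM held 184, 200 and 367 Ltb UMIs per 100 T marker UMIs in the 3 mice that had any, where αβ T cells held 17.9 to 24.6. Multiplied by the ratio of Ltb to marker UMIs in the same mouse's T and B cell gates, the marker UMIs in MSM came to 20.4%, 15.8%, 21.3% and 46.5% of the Ltb UMIs found, the last of 2 UMIs. Markers of other lymphoid cells do not enter this share. Summed markers of type 3 innate lymphoid cells were at 84.5 CPM in MSM and 14.6 in C1q macrophages. Those of NK cells were at 91.4 and 90.1 CPM. In migratory DCs the T markers were at 16.9, 0, 18.8 and 17.5 CPM and that share was 32.1%, 0%, 11.4% and 9.72%. Over all 33 myeloid libraries it ranged from 0% to 46.5% with a median of 6.91%. The part of the MSM difference that T cell RNA makes up was not tested.

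**Figure D4:**
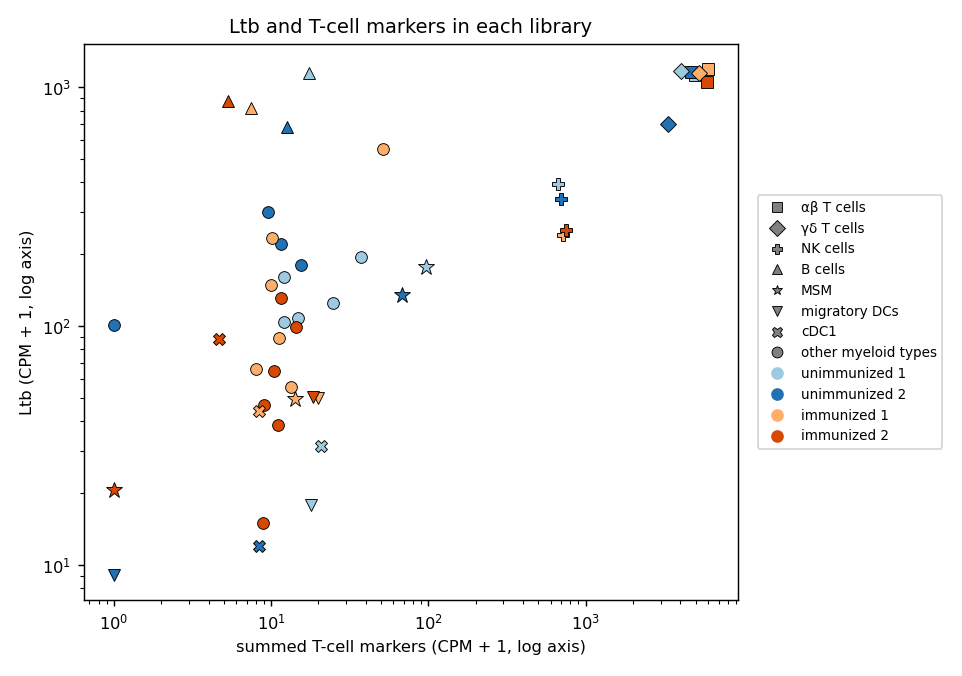
Ltb (vertical axis, CPM plus 1, log scale) against the summed αβ T cell markers (horizontal axis, CPM plus 1, log scale), with 1 point per mouse and type, shaped by type and coloured by mouse. MSM run from 176.5 CPM of Ltb with 95.8 CPM of T markers to 19.7 CPM of Ltb with none.

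The other members gave smaller or sparser differences. In Cd209a DCs Tnfrsf1a was at 43.3 and 25.7 against 63.0 and 87.8 CPM (0.98 ± 0.31, adjusted p = 0.175, and 1.19 with an adjusted p of 0.0309 without immunized mouse 1) and Ltbr at 17.1 and 8.55 against 22.1 and 35.7 CPM (0.91 ± 0.45, adjusted p = 0.554), both without overlap. The remaining 3 tests with a low unadjusted p rested on 1 library: Lta in NK cells (46.0 and 0 against 1.42 and 0 CPM, adjusted p = 1), and Lta and Tnfsf11 in MSM (12.1 and 0 against 0 and 0 CPM each, adjusted p = 0.527 and 0.423). The call by limma-voom was Tnfsf11 in C1q macrophages, a type with no UMI of it, and has no counts behind it. Tnfsf13 in MSM and Tnfrsf11a in migratory DCs overlapped between conditions, as did Tnfrsf13c in B cells.

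Over the sum of all kept cells of a mouse, 3 ligands were lower and 2 receptors higher in both immunized mice. Of the 14435 genes with at least 20 UMIs in these sums, 49.8% were likewise lower and 15.6% higher without overlap, so separation by itself does not set these genes apart. Ltb was at 522 and 374 CPM in the unimmunized and 190 and 80.4 CPM in the immunized mice, Lta at 26.8 and 14.9 against 4.92 and 1.89, and Tnfsf11 at 8.76 and 3.41 against 0.641 and 0.436. Ltbr was at 16.6 and 19.4 against 25.7 and 33.4 CPM, and Tnfrsf1a at 50.8 and 53.4 against 72.5 and 96.6. The conditions of these 5 genes did not overlap, and the exact two-sided permutation test gave p = 0.3333 for each, the smallest p that 2 against 2 mice allow. Tnfrsf11a, Tnfsf13, Tnfsf13b and Tnfrsf13c overlapped between conditions. In such sums fewer cells of a type and less RNA per cell cannot be told apart. Beside them stand the shares of αβ T cells given above, which were lower in both immunized mice, and the levels within αβ T cells. There Ltb overlapped between conditions, Lta was lower in both immunized mice (38.4 and 28.4 against 26.9 and 17.1 CPM) and Tnfsf11 was higher in both (10.5 and 13.3 against 13.4 and 22.2 CPM). The edgeR test called neither Lta (-0.47 ± 0.55 log2 units, adjusted p = 0.938) nor Tnfsf11 (0.75 ± 0.65, adjusted p = 0.875). Ltbr was lower without overlap in 2 of the 8 types compared and higher in 2. The lower ones were C1q macrophages (48.0 and 47.7 against 29.9 and 35.1 CPM) and nonclassical monocytes (44.6 and 52.4 against 27.5 and 39.0). The higher ones were Cd209a DCs, given above, and migratory DCs (9.65 and 0 against 13.4 and 14.6). Tnfrsf1a was higher in 2 of 9 types and lower in 1. Of all gene and type pairs, 22.9% were likewise lower and 17.9% higher without overlap.

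**Figure D5:**
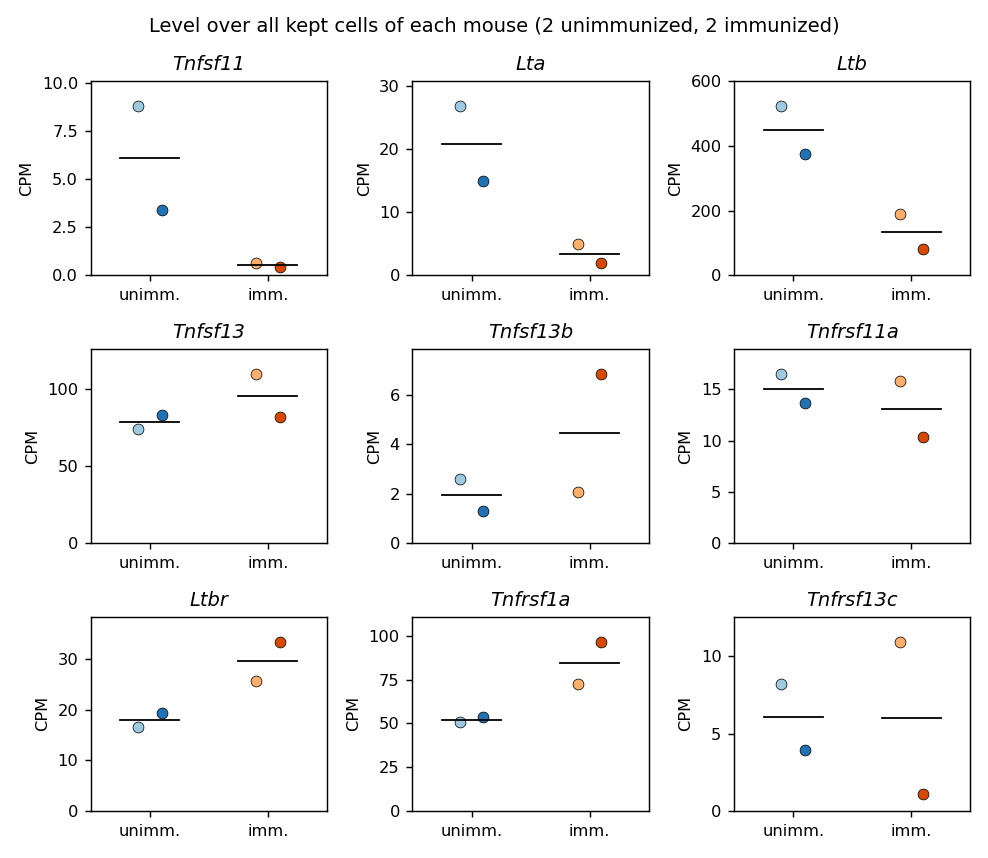
Level of each of the 9 genes in CPM (vertical axis) over all kept cells of a mouse, with 1 dot per mouse in the unimmunized and immunized groups (horizontal axis) and a line at the group mean. Ltb, Lta and Tnfsf11 are lower, and Ltbr and Tnfrsf1a higher, in both immunized mice, and the other 4 genes overlap.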

How the data were processed

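The authors deposited raw UMI counts per barcode for genes, antibody tags and hashtags. Genes were counted by the authors with Cell Ranger 4.0.0 on mm10 from 3′ libraries, and tags with CITE-seq-count. No source used here states whether strand was counted. Here a barcode was kept if its top hashtag held at least 80% of at least 10 hashtag counts and mitochondrial genes at most 25% of its UMIs. Barcode sequences seen in both captures (621) were dropped. Barcodes of 2 mice were removed by the hashtags, and the 245 barcodes that passed a lymphoid and a myeloid gate were left out as possible doublets. No other doublet caller was run.

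Cells were gated on 110 marker genes (1 absent from the gene list), whose thresholds were set after their count distributions were seen. The members and gene lists were chosen with earlier results of these data known. UMIs were summed per mouse and type (at least 10 cells) and tested with edgeR 4.0.16 in R 4.3.3 (TMM, quasi-likelihood, Benjamini-Hochberg over 11182 genes, threshold 0.05), each type and condition having its own mean. Types weigh equally in each comparison of lineages. Libraries of a mouse come from the same animal, which is where the pairing comes from, and the consensus correlation within mice was 0.0647. Immunization within a type cannot take this block, since a mouse has 1 condition. DESeq2 1.42.0 and limma-voom (limma 3.58.1) were alternatives, as were Seurat 5.3.0's HTODemux, other gates, filters and captures, and leaving out each mouse. HTODemux, another rule for assigning hashtags, kept 9902 cells against 12139 in the main setting. In immunized mouse 2 it kept 2072 against 4722. Shares of cells were taken after thinning each cell to 1000 UMIs, leaving out cells with fewer, and are means over mice. Limits for a count of 0 are 3 counts over the summed library and cover counting error only. The members named throughout are all 9, and the top 3 genes per member were named by likeness of log CPM (prior 5 CPM), of which 1 is not reported here. Scripts were tested on simulated data.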

Additional observations from a re-analysis of the deposited data

Results flagged for a closer look

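The following values stood apart from the other 3 mice of their type by Dixon's 95% criterion, in 6 of 69 groups of 4 mice. The criterion's chance rate of about 1 in 20 holds for normal values and not for sparse counts. A group at 0 in all mice but 1 always meets it, so the 6 cannot be set against that rate. Lta was at 46.0 CPM in the NK cells of unimmunized mouse 1, with 48 UMIs in 8 cells, and at most 1.42 CPM in the other mice. In the MSM of the same mouse Tnfsf11 and Lta were each at 12.1 CPM (12 UMIs in 3 and in 5 cells) and Tnfsf13b at 5.04 CPM (5 UMIs in 4 cells), with 0 in the other mice, whose MSM gates held 40, 171 and 24 cells against 341. Lta was at 11.1 CPM in its C1q macrophages, from 3 UMIs. Tnfrsf1a was at 98.5 CPM in the MSM of immunized mouse 2, a gate of 24 cells, and at 41.9 to 48.4 CPM in the others. The causes were not tested.

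The effect of immunization on Ltb differed among types by the interaction test with the mouse as a replicate block, with an adjusted p of 0.003385. Without the block it was 0.0699 and not past the threshold. Ltb was lower in the immunized mice in MSM (-1.81 log2 units) and higher in migratory DCs (1.70), neither of which was called within its own type by edgeR with the filter on low counts and all 4 mice. Without that filter both were called (-1.75, adjusted p = 4.96e-04 in MSM, and 1.73, adjusted p = 0.00705 in migratory DCs), and DESeq2 called the one in MSM (adjusted p = 0.0432). With barcodes of a lymphoid and a myeloid gate kept, edgeR also called MSM (adjusted p = 0.0405). The call in MSM was not made under 12 alternatives, nor that in migratory DCs under 13. T cell marker RNA moved with Ltb in MSM, at 95.8 and 67.1 against 13.2 and 0 CPM, and its part in the interaction was not tested.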

How the results depend on the processing

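Of 24 calls of members over the 5 comparisons across types (40 tests), 17 to 30 were made under the 18 alternatives. Over 27 named results and 450 values under alternatives, 397 kept direction and side of the threshold, 35 lost the threshold, 17 passed it newly and 1 reversed: Lta in NK cells was 3.88 log2 units higher without unimmunized mouse 1 (-8.31 to 3.88 when 1 mouse was left out). After immunization 0 members were called in the main test, 3 without a filter on low counts, 1 each by DESeq2, by limma-voom and with barcodes of a lymphoid and a myeloid gate kept, and 0 to 2 when 1 mouse was left out (2 without immunized mouse 1, 1 without immunized mouse 2). The count of members whose difference varied among types was 0. It was 1 with the mouse as a replicate block, by DESeq2, by limma-voom and with those barcodes kept, 2 without a filter, and 0 to 2 when 1 mouse was left out. The block changed no call other than that of Ltb here and those of Lta and Ltb in B cells. Counts over all genes moved too. The 21150 calls across types became 12425 to 20053 when 1 mouse was left out. The 159 calls after immunization became 1272 without a filter, 564 by limma-voom, 36 by HTODemux, 88 with 1 more marker per gate, 89 without the 10% of cells with the most UMIs, 54 with at least 20 cells, 28 and 10 in captures 1 and 2 alone, and 25 to 1796 when 1 mouse was left out. The 7 genes that varied among types became 80 with the block, 356 without a filter, 31 by DESeq2 and by limma-voom, 1 by HTODemux, 12 with 1 more marker, 36 with those barcodes kept, 4 without the top 10% of cells, 16 with at least 5 cells, 0 in capture 1 alone, and 1 to 325 when 1 mouse was left out. Settings with fewer libraries tested fewer types, 4 to 11. Where a mouse left a type with 1 library per condition, that library was assumed to vary like the others.

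Thinning left out cells below its depth, so 569, 336 and 576 MSM entered at 1000, at 2000 and unthinned. Over these unequal sets, shares of cells with a UMI rose with depth. Thinned to 1000, thinned to 2000 and unthinned they were 12.55%, 23.3% and 67.8% for Tnfrsf11a in migratory DCs, 66.4%, 82.5% and 98.1% for Ltb in αβ T cells, 22.9%, 41.0% and 46.3% for Tnfsf13 in MSM and 24.1%, 41.2% and 60.8% for Tnfrsf13c in B cells. In nonclassical monocytes they were 0.172%, 1.54% and 4.36% for Tnfsf13b and 9.84%, 19.4% and 60.2% for Tnfrsf1a. Thinned to 1000 and unthinned they were 5.72% and 18.5% for Lta in B cells, 5.32% and 30.1% for Ltbr in nonclassical monocytes, and 1.91% and 7.70% for Tnfsf11 in αβ T cells (1.01% with 1 more marker). Over the whole sort, leaving out 1 mouse at a time, a check added after seeing the data, gave log2 ratios of -4.03 to -2.66 for Tnfsf11, -0.54 to 0.074 for Tnfrsf11a, -3.46 to -2.08 for Lta, -2.48 to -1.24 for Ltb, 0.091 to 1.81 for Tnfsf13b, -2.47 to 0.84 for Tnfrsf13c and 0.48 to 0.89 for Tnfrsf1a. The causes were not tested.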

Other observations

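The gates held unequal parts of the members' UMIs: 86.0% of those of Tnfrsf13c, 69.2% of Tnfrsf11a, 62.0% of Ltb, 61.2% of Tnfsf13b, 60.3% of Tnfrsf1a, 59.1% of Lta, 58.7% of Ltbr, 52.9% of Tnfsf13 and 48.5% of Tnfsf11, beside 57.9% of the UMIs of all genes. The rest lay in cells that passed no gate, more than 1 gate of a lineage, or a lymphoid and a myeloid gate.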
